A study of Arabidopsis thaliana with 9 samples.

Results

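Arabidopsis suspension cells of the line Alex (genetic background Col-O) that carried estrogen-inducible LHW/T5L1-GFP were compared after 12 h with 5 µM estrogen and at 0 h, the start of the experiment. The group 12h_induced and the group 0h had 3 arrays each, and each array of one group was paired with the array of the other that had the same replicate number in its title. A further group of 3 arrays, 12h_uninduced, held the same cells after 12 h without estrogen. All 9 samples came from dark-grown cells with the inducible genes, so no group showed estrogen acting on cells that lack them, and the comparison with 0 h joins induction and time. Nothing in the labels says that replicates were separate cultures, so the p-values rest on array-to-array variation that may be purely technical. The values were log2 signals per probe set, where a difference of 1 is a 2-fold difference on the linear scale. Of 38310 probe sets, 16722 mapped to 1 gene, and 4639 of these, for 4606 of 16550 genes, had a mean log2 signal of 8 or more in at least one of the 2 groups. These 4639 high-signal probe sets are the subject of the description. RefSeq gave a gene symbol or name for 741 of them, and for the other 3898 only a locus tag.

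LHW (LONESOME HIGHWAY) is a basic helix-loop-helix transcription factor that pairs with partners of the TMO5 family, such as T5L1, and promotes the divisions of vascular precursor cells in the root. Plant cells that grow and divide make ribosomes, nucleotides and new wall material, replicate their DNA and respire. Cells short of sugar take the opposite course: autophagy delivers cell contents to the vacuole, vacuolar proteases digest them, and amino acids and lipids are broken down for energy.

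Array medians lay between 5.81 and 6.21 in 12h_induced and between 5.28 and 5.67 at 0 h over all probe sets, but over probe sets with a gene name they lay between 5.16 and 5.43 against 5.12 to 5.44. Replicate 3 stood apart. In it, 12h_induced and 0h held exactly equal values for 5479 of 16722 probe sets with 1 gene (32.8%), against 66 and 68 in replicates 1 and 2. Among high-signal probe sets these were 227 (4.89%) in replicate 3, of which 7 were called, and 0 in the other replicates. On replicates 1 and 2 alone, limma called 1799 high-signal probe sets higher and 1523 lower, against 1912 and 1583 on all replicates. In the fit with array weights, replicate 3 of 0h had the lowest weight, 0.29, where the other arrays had 0.724 to 1.84. Without that array alone, 1954 were called higher and 1633 lower. For the gene lists below, the high-signal counts on replicates 1 and 2 alone differed by at most 1 in either direction, except for plastid-encoded genes. The 23 background rows of the arrays had a median log2 signal of 4.2, and a level below it has no certain size. Of the listed cell type markers, the root hair genes EXPA7 (4.01 and 3.85) and EXPA18 (3.2 and 3.16) and the phloem gene CLE45 (2.27 and 2.56) lay below 4.2 in 12h_induced and 0h, and the phloem gene OPS lay just above it (4.34 and 4.36). None of these 4 was called. The photosynthesis gene RCA, the Rubisco activase, had a mean of 4.97 in 12h_induced against 7.92 at 0 h, with a log2 change of -2.95 (SE 0.11, limma adjusted p = 1.76e-05), and its part in other results was not tested. No endodermis or xylem marker of the list had a probe set of its own.

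LHW, the induced gene, had log2 signals of 10.72, 11.05 and 11.24 in 12h_induced, against 8.60, 8.71 and 8.22 at 0 h. All 3 arrays with estrogen lay above all 3 at 0 h. It rose by 2.49 on the log2 scale (SE 0.21), a 5.63-fold change, with adjusted p = 0.000184 in limma after Benjamini-Hochberg adjustment over all 38310 probe sets. An adjusted p under 0.05 counts as a call throughout. Without estrogen at 12 h LHW had 8.72, 8.60 and 8.14, a range that overlaps 0 h. T5L1 had no probe set that named it alone and was not analysed here.

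Most high-signal probe sets differed between estrogen-treated cells at 12 h and cells at 0 h. Limma called 1912 of 4639 higher (41.2%) and 1583 lower (34.1%), together 75.3%. Over all 38310 probe sets it called 50.8% (34.5% higher and 16.3% lower) and over those with 1 gene 41.3% (22.3% higher and 19.0% lower). Counted by gene, with 1 probe set each as in the gene lists below, 22.4% were called higher and 19.0% lower. A probe set that reached 8 in 1 group only had to differ, and nothing is read from the shares called among these. They were 730 of 775 called higher where only 12h_induced reached 8, and 724 of 782 called lower where only 0 h did. The same holds for such members of the gene lists below, whose direction the selection set. Of the 3082 probe sets at 8 or more in both groups, 1182 were called higher and 859 lower (66.2%). Selection on the mean over the 6 arrays gave 1515 higher and 1172 lower of 3767 (71.3%). Changes of at least 1 on the log2 scale numbered 978 higher and 801 lower. The 3 arrays of 12h_induced lay wholly above or below the 3 at 0 h for 3109 of the 4639, where the background was 46.2% of all probe sets and 36.0% of those with 1 gene. Fewer cells of a type and less RNA per cell cannot be told apart in these bulk samples.

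The share of calls moved with the signal. Bands were set on the mean over all 9 arrays, so 12h_uninduced entered them too. The share was 7.71% of 6591 probe sets with 1 gene below 4.2 and 47.3% between 4.2 and 6. It was 67.8% between 6 and 8, 72.4% between 8 and 10 and 67.2% of 970 at 10 or more. The median SE of the log2 change fell over the same bands, being 0.15 in the lowest and 0.08 in the highest. Its median size was 0.65 between 8 and 10 and 0.49 at 10 or more, so the brightest probe sets had the more precise but not the larger changes. Over all high-signal probe sets the median change was 0.07, 0.08 and 0.02 in pairs 1, 2 and 3. Close to the limit, AT4G18335 (7.26 in 12h_induced, 8.0 at 0 h) was just inside and AT3G49310 (8.0 and 7.77, under 8 before rounding) just outside.

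**Figure D1:**
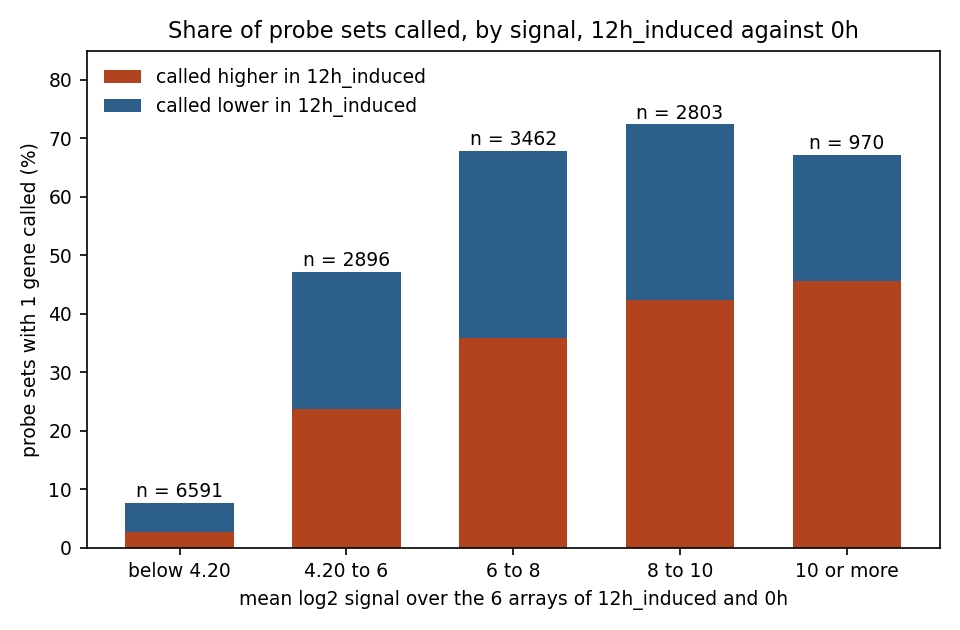
Percent of probe sets with 1 gene called higher or lower in 12h_induced against 0h (y axis), with their number above each bar. The x axis is the mean log2 signal over all 9 arrays, although its title names 6. The share is 7.71% below the background median of 4.2 and 72.4% between 8 and 10.

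The balance of rises and falls depended on the scale between arrays. As deposited, 54.7% of the high-signal calls were higher. After quantile normalization 1519 were higher and 2137 lower (41.5% higher), and after centring each array on its median over all probe sets 1203 were higher and 2581 lower (31.8% higher). Centring on probe sets with a gene name, added after seeing the data, gave 1826 and 1586 (53.5% higher). Quantile normalization turned the median over all 38310 probe sets, 0.12 in the deposited values, to -0.08, and median centring turned it to -0.4. For probe sets with 1 gene these medians were 0.00, -0.20 and -0.52. Unless another scaling is named, changes are those of the deposited values, relative to these medians. Without the replicate number as a block, limma called 1467 high-signal probe sets higher and 1189 lower.

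Genes for making RNA and ribosomes rose. Of 17 measured RNA polymerase subunits all 17 were called higher, where 22.4% of all genes were. Their median change was 1.13, against 0.00 over all probe sets with 1 gene. Among the 17, 11 had a high signal, 9 in both groups. Of those 11, 10 stayed higher after quantile normalization and 8 after median centring, and none was lower. NRPA1 and NRPA2 are the large subunits of RNA polymerase I, which transcribes ribosomal RNA. NRPA1 had 11.22, 11.23 and 11.70 in 12h_induced, against 9.42, 9.51 and 9.90 at 0 h. Its groups lay apart by more than 1, and it rose by 1.77 (SE 0.07, adjusted p = 2.06e-05). NRPA2 had 11.72, 11.74 and 12.12, against 9.87, 9.88 and 10.10 at 0 h, and rose by 1.91 (SE 0.08, adjusted p = 2.25e-05). NRPC2, the corresponding subunit of RNA polymerase III, which makes transfer RNA and 5S RNA, rose by 1.81 (3.51-fold). The small subunit NRPB12 rose most within this list, with 9.47, 9.61 and 10.57 against 7.41, 7.52 and 8.0 at 0 h, a log2 change of 2.24 (SE 0.12). The smallest rise of the 11 was that of NRPB6B, 0.50.

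Factors of the nucleolus, where ribosomal RNA is processed, moved the same way. Of 11 measured, 10 were called higher and 0 lower, with a median of 1.04. Over all genes 22.4% were called higher and 19.0% lower. All 9 at high signal rose, 6 of them high in both groups. Of the 9, 8 stayed higher after quantile normalization and 7 after median centring, none lower. YAO, a nucleolar WD40 protein, had 10.26, 10.46 and 10.91 in 12h_induced, against 7.73, 7.76 and 8.18 at 0 h. It rose 6.28-fold (2.65, SE 0.08, adjusted p = 1.34e-05). RBL, which is REBELOTE, had 11.22, 11.34 and 11.49, against 9.13, 9.04 and 9.32 at 0 h, and rose 4.54-fold. The RNA helicase RH57 (AT3G09720) rose by 2.25, and the nucleolar helicase PRH75, among the brightest of the list at 12.17 against 11.13, rose by 1.04. IMP4, a part of the complex that cuts ribosomal RNA precursors, rose by 1.02 and PCN (POPCORN) by 0.59.

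Few genes of translation itself could be named, since most ribosomal protein genes carried only a locus tag in the tables used. EIF4A-2, the RNA helicase of translation initiation, had 11.31, 11.32 and 12.06 in 12h_induced, against 9.75, 9.69 and 10.30 at 0 h, a rise of 1.65 (SE 0.08, adjusted p = 3.04e-05). ILA (ILITHYIA) rose by 1.21 and PGY1 (PIGGYBACK1), a ribosomal protein of the large subunit, by 1.62. TRM82, a subunit of a transfer RNA methyltransferase, rose 6.08-fold, with a mean of 8.82 in 12h_induced against 6.22 at 0 h. Each of these 4 kept its rise under every scaling and array omission tried.

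Enzymes that make nucleotides, histidine and arginine were called higher in 8 of 8 measured cases (median 1.31), against 22.4% of all genes. This list was added after the largest changes had been seen. All 7 of its high-signal members, 4 of them high in both groups, stayed higher after quantile normalization and median centring. PYRB, the aspartate transcarbamoylase that starts pyrimidine synthesis, had 9.12, 9.24 and 9.50 in 12h_induced, against 6.94, 6.83 and 6.99 at 0 h. That is a 5.15-fold rise (2.36, SE 0.09, adjusted p = 1.84e-05). UPP, which salvages uracil, rose 5.44-fold and reached 8.37 against 5.93 at 0 h. HISN4 (AT-HF), an enzyme of histidine synthesis, rose by 1.85, ornithine carbamoyltransferase (OTC) of the arginine path by 1.31, and the AMP deaminase FAC1, at 12.16 against 10.89, by 1.27.

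Chaperones were mixed. Of 12 measured, 6 were called higher and 1 lower, with a median of 0.85. Of the 10 at high signal, 5 were called higher, 1 lower and 4 not. Over all high-signal probe sets 41.2% were called higher and 34.1% lower. The plastid chaperonin subunit Cpn60beta4 had 9.0, 9.02 and 9.72 in 12h_induced, against 6.36, 6.25 and 6.80 at 0 h, and rose 6.84-fold (2.77, SE 0.09, adjusted p = 1.34e-05). HSP93-III, a motor of protein import into plastids, rose by 1.19 and the co-chaperone Hop1 by 1.16. HSA32, known from heat acclimation, fell by 2.31 with a wide error (SE 0.74, adjusted p = 0.0415), with a mean of 7.76 against 10.08 at 0 h. GYRB2, a subunit of the DNA gyrase of organelles, rose by 2.21 and PPR596, a pentatricopeptide repeat protein, by 2.32.

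DNA replication and division genes rose. All 6 measured replication genes were called higher (median 1.1), where 22.4% of all genes and 41.2% of all high-signal probe sets were. All were at high signal, 2 of them in both groups, and 6 stayed higher after quantile normalization and 5 after median centring. PRL (PROLIFERA), the MCM7 subunit of the replicative helicase, had 9.64, 9.54 and 10.18 in 12h_induced, against 7.51, 7.59 and 7.70 at 0 h. The groups did not overlap, and the rise was 2.19 (SE 0.16, adjusted p = 0.000104). ICU2, the catalytic subunit of DNA polymerase alpha, was brightest at 10.09 against 9.09 and rose by 1.0. POLA3 rose by 1.41 and ATIM (TIMELESS), a protein of the replication fork, by 1.19. Of 11 measured genes of mitosis and the cell cycle, none of them a cyclin, 10 were called higher and 0 lower (median 1.05). Among all genes 22.4% were called higher and 19.0% lower. Of the 7 at high signal, 4 of them in both groups, 6 stayed higher after median centring. BUB3.2, of the spindle checkpoint family, had 9.60, 9.69 and 9.29 in 12h_induced, against 7.55, 7.71 and 7.42 at 0 h, and rose 3.91-fold. BUB3.1 rose by 1.68, the histone kinase Haspin by 1.5 and the aurora kinase AUR3 by 1.06. HTR12, the histone H3 of centromeres, rose by 1.5 and the H2B gene HTB1 by 1.27, while the H1-like gene HON4 fell by 1.17 and HTB4 differed by 0.08 without a call.

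Respiration genes rose in part. NDB4, an external NAD(P)H dehydrogenase of mitochondria that passes electrons to ubiquinone without pumping protons, had 10.87, 10.86 and 11.20 in 12h_induced, against 6.19, 6.29 and 5.67 at 0 h. It rose 30.5-fold (4.93, SE 0.23, adjusted p = 2.69e-05), the largest rise of an annotated gene whose 0 h level lay above 4.2. Its relative NDB2 had 10.38, 10.46 and 10.41, against 9.08, 9.14 and 8.22 at 0 h, and rose by 1.60. Of 10 measured genes of the mitochondrial citric acid cycle and pyruvate dehydrogenase, 6 were called higher and 0 lower (median 0.60). The shares over all genes were 22.4% higher and 19.0% lower. Of the 7 at high signal, 5 were higher and 1 lower after quantile normalization, and 4 were higher and 1 lower after median centring. SDH1-2, a flavoprotein subunit of succinate dehydrogenase, rose 5.50-fold, and SDH1-1, its brighter relative at 11.13 against 9.78, rose by 1.35. IDH-VI, of isocitrate dehydrogenase, rose by 2.02 and MAB1, of pyruvate dehydrogenase, by 1.05, while SDH2-2 differed by -0.21 without a call. In glycolysis, triosephosphate isomerase (TPI) rose by 1.20 and GAPC2 differed by -0.08 (adjusted p = 0.459).

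Few wall genes were bright, and some of those had large rises. Expansins loosen walls so that cells can grow. EXPA9 had 10.82, 10.83 and 10.77 in 12h_induced, against 7.29, 7.33 and 6.02 at 0 h, where replicate 3 stood below the others, and rose 15.2-fold (3.93, SE 0.29, adjusted p = 0.000109). EXPA15 reached 8.49 against 3.53 at 0 h, a level below the background median that leaves the size of its rise uncertain. Of 24 measured expansins, 6 were called higher and 0 lower, with a median change of 0.04. The share called higher over all genes was 22.4%, and called lower 19.0%. The endoglucanase GH9C2 had 11.12, 11.13 and 10.29 in 12h_induced, against 7.19, 6.51 and 7.05 at 0 h, also a 15.2-fold rise. Of 72 measured genes of xyloglucan and cellulose enzymes and their relatives, 14 were called higher and 4 lower (median 0.03). The same 22.4% and 19.0% over all genes stand beside these counts. Of the 11 at high signal 8 were higher and 1 lower, but 4 were higher after quantile normalization, after median centring or without the replicate block, with 2, 2 and 1 lower. TBL26 rose by 1.48, and CSLC04, a synthase of the xyloglucan backbone, fell to 5.09 in 12h_induced, against 8.48 at 0 h (-3.39, SE 0.28).

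**Figure D2:**
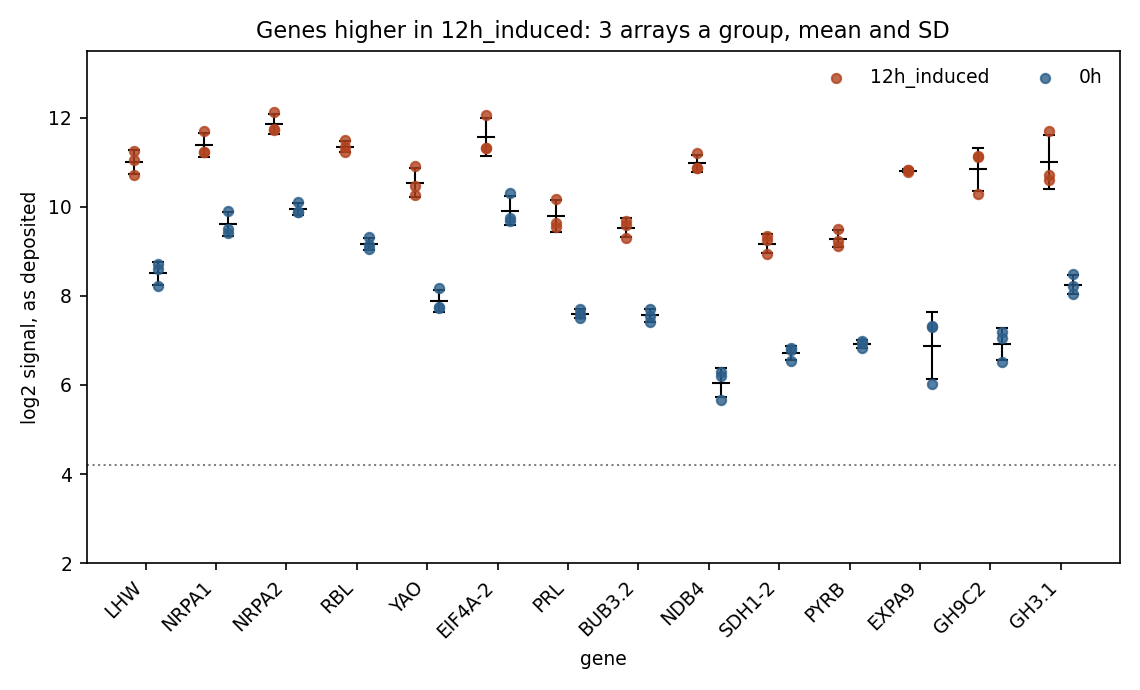
Log2 signals as deposited (y axis) of 14 genes (x axis), with the 3 arrays of 12h_induced left of the 3 of 0h; black marks give mean and SD, and the dotted line the background median of 4.2. In each gene all 12h_induced arrays lie above all 0h arrays, by the widest margin for NDB4.

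The brightest genes of all were mostly encoded in the organelles, and as deposited none of the brightest 6 was called. The genes with the highest mean over the 6 arrays were atpH, rpl20, cox1, AT2G07741, rpl14 and petG, with changes from -0.11 to 0.01 (adjusted p 0.278 to 0.907). For atpH, a subunit of the plastid ATP synthase, the levels were 13.38, 13.41 and 13.65 in 12h_induced, against 13.36, 13.38 and 13.65 at 0 h, so the groups overlapped, while after median centring atpH was called lower (-0.51). For cox1, of the mitochondrial cytochrome oxidase, they were 13.14, 13.24 and 13.48, against 13.31, 13.28 and 13.52. A list of 63 plastid-encoded genes, added after the largest changes had been seen, had a median of -0.11, with 17 called lower and 1 higher as deposited. That count depended on the fit: 9 were lower and 2 higher on replicates 1 and 2 alone, 5 lower and 1 higher without the replicate block, 55 lower and 0 higher after quantile normalization and 59 lower and 0 higher after median centring. Among the 17, psbB of photosystem II fell by 0.70 (11.85 against 12.55) and psbH by 0.73.

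Autophagy genes fell. Of 11 measured, 10 were called lower and 1 higher (median -1.06), where 19.0% of all genes were called lower and 22.4% higher. All 7 at high signal, 4 of them in both groups, stayed lower after quantile normalization and median centring. ATG8 proteins are joined to the lipid of the growing autophagosome, and ATG3 is an enzyme of that joining. ATG8E had 5.04, 4.83 and 5.63 in 12h_induced, against 8.27, 8.09 and 9.09 at 0 h, a 9.96-fold fall (-3.32, SE 0.12, adjusted p = 1.62e-05). ATG8F, the brightest, had 9.88, 9.96 and 9.70, against 11.86, 11.90 and 11.98 at 0 h, and was 4.19-fold lower. In both genes all arrays with estrogen lay below all arrays at 0 h. ATG101 (AT5G66930), a subunit of the complex that starts autophagy, fell by 1.02 and ATG3 by 0.94. ATG8G, which was not at high signal, was the 1 member called higher, by 0.42.

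Genes of amino acid breakdown fell further. Of 10 measured, 9 were called lower and 0 higher, with a median of -2.57. Over all genes 19.0% were called lower and 22.4% higher. Of the 9 at high signal, 6 of them in both groups, 8 fell, or all 9 after quantile normalization or median centring. MCCB, a subunit of 3-methylcrotonyl-CoA carboxylase in leucine breakdown, had 6.13, 6.08 and 6.32 in 12h_induced, against 9.92, 9.93 and 10.80 at 0 h, and was 16.5-fold lower (-4.04, SE 0.17, adjusted p = 2.05e-05). ALDH6B2, which acts in valine breakdown, had 8.30, 8.39 and 8.48, against 11.01, 10.95 and 11.24 at 0 h, and was 6.39-fold lower. Neither gene's groups overlapped. D2HGDH, a dehydrogenase of 2-hydroxyglutarate, fell by 3.43, and ETFQO, which passes electrons from such dehydrogenases to the respiratory chain, fell by 2.70. The lysine enzyme LKR/SDH (AT4G33150) fell by 2.98, methionine gamma-lyase (MGL) by 2.47 and ornithine aminotransferase (DELTA-OAT) by 2.35. The asparaginase gene ASPGB1 differed by -0.38 without a call. ALN, the allantoinase of purine breakdown, had 8.06, 8.25 and 8.41 in 12h_induced, against 11.01, 11.17 and 11.66 at 0 h, and was 8.22-fold lower.

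Among other genes of breakdown, single genes had large falls, but the proteases as a list did not move in 1 direction. SDP1, the main lipase of stored oil in seedlings, had 6.67, 6.74 and 7.23 in 12h_induced, against 9.17, 9.39 and 10.34 at 0 h, and was 6.73-fold lower (-2.75, SE 0.14, adjusted p = 3.52e-05). SDP1-LIKE, its relative, was below 8 in both groups and rose by 0.97 (7.94 against 6.97 at 0 h). AIM1, an enzyme of peroxisomal beta-oxidation, fell by 1.15. Of 8 measured aldehyde dehydrogenases, 5 were called lower and 1 higher, the rise being lost after quantile normalization and median centring; ALDH7B4 had 9.78 against 12.15 at 0 h and fell by 2.37. PPDK, pyruvate orthophosphate dikinase, had 6.29, 6.06 and 6.26 in 12h_induced, against 10.81, 10.92 and 11.06 at 0 h. That made it 26.5-fold lower, with little spread in either group (-4.73, SE 0.11, adjusted p = 9.02e-06). Of 44 measured proteases of the vacuole and the secretory path, 10 were called lower and 8 higher (median -0.12). The shares over all genes were 19.0% lower and 22.4% higher. Of the 8 proteases at high signal, 5 of them in both groups, 6 fell and 1 rose. After quantile normalization or median centring 7 of those 8 were lower and 1 higher. APA1, an aspartic proteinase, had 10.07, 10.04 and 10.31, against 12.25, 12.35 and 12.29 at 0 h, and was 4.46-fold lower. GAMMA-VPE, a vacuolar processing enzyme, fell by 1.75, the carboxypeptidase-like gene scpl48 by 2.1 and the subtilase SBT5.4 by 3.22, while the carboxypeptidase-like gene scpl50 rose by 1.5.

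Sugar carriers split. SWEET16, a sugar carrier of the vacuole membrane, had 4.61, 4.02 and 3.78 in 12h_induced, against 8.96, 9.13 and 9.40 at 0 h. It fell by 5.03 (SE 0.27), to a mean of 4.13 that lies below the background median, so the size of the fall is uncertain. SFP1, of the sugar porter family, was 12.3-fold lower (5.82 against 9.45 at 0 h). The tonoplast monosaccharide carrier TMT1 fell by 1.02, to 10.04 against 11.06 at 0 h. Its relative TMT2 rose by 0.84, with 8.87, 8.92 and 9.28 in 12h_induced against 8.05, 8.07 and 8.44 at 0 h. These directions held under each scaling. cwINV6, named as a cell wall invertase, had 6.91, 6.89 and 7.12, against 11.05, 11.06 and 11.47 at 0 h, and was 18.6-fold lower.

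Genes of secondary and sulfur metabolism were among the largest falls. Of 23 measured beta-glucosidases, which free compounds stored as glucosides, 7 were called lower and 3 higher (median -0.12). Over all genes 19.0% were called lower and 22.4% higher, so the list as a whole showed no clear fall. Of the 6 at high signal, 5 fell and BGLU42 rose (1.67), under each scaling. Only PYK10 was at high signal in both groups. The selection set the direction of the others, so nothing is read from this split. BGLU46 had 4.01, 4.10 and 5.15 in 12h_induced, against 8.81, 8.93 and 10.04 at 0 h, and fell by 4.84 on the log2 scale (SE 0.10). PYK10, the abundant enzyme of ER bodies, fell by 1.80, to 10.14 against 11.94. GSTF3, a glutathione transferase, had 4.13, 4.74 and 4.51, against 9.66, 9.43 and 9.31 at 0 h, and fell by 5.01 (SE 0.20). Some 12h_induced arrays of both genes lay below the background median, so the sizes of these falls are uncertain. CCOAMT, a caffeoyl-CoA methyltransferase, was 25.9-fold lower, the cysteine synthase family gene OASA2 16.2-fold and the sulfurtransferase STR18 15.3-fold. PDF1.4, a defensin-like gene, was 17.9-fold lower. SAPX, an ascorbate peroxidase of plastids, went the other way and rose by 1.80.

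Most dehydration genes that were called fell, while the transcription factor families were mixed. Of 16 measured LEA, dehydrin and abscisic acid genes, 9 were called lower and 1 higher (median -1.0), and the rise was lost after quantile normalization and median centring. COR27, a cold-regulated gene, was 13.8-fold lower, with 5.52, 5.66 and 5.33 in 12h_induced against 8.85, 8.77 and 10.25 at 0 h. DI19, named as drought-induced, fell by 1.5 but stayed bright at 10.90 against 12.40. The ERF factor DEWAX (AT5G61590), a repressor of wax synthesis, had 2.42, 1.98 and 2.89 against 9.06, 9.15 and 9.89 at 0 h, so the size of its fall is uncertain, the level in 12h_induced being below the background median. Of 7 WRKY factors 3 were called lower, with WRKY29 falling by 1.81. Of 23 bZIP factors 6 were called lower and 3 higher (median 0.04). Among all genes 19.0% were called lower and 22.4% higher. At high signal 4 of 6 bZIP factors were lower, where 34.1% of all high-signal probe sets were. Among the 4 were BZIP53 (-1.18) and the unfolded protein response factors BZIP28 (-1.36) and BZIP60 (-1.26). MYC3, a factor of jasmonate response, fell by 2.14 and bHLH121, of iron response, by 1.60.

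Auxin and vascular genes, nearest to the known function of LHW, did not move in 1 direction. Of 20 measured auxin genes 2 were called higher and 4 lower. Of 17 vascular genes 3 were higher, LHW itself among them, and 4 lower. The background over all genes was 22.4% higher and 19.0% lower. Of 6 auxin genes at high signal 4 were lower, or 2 without the replicate block. GH3 enzymes join auxin to amino acids. GH3.1 had 10.71, 10.61 and 11.69 in 12h_induced, against 8.23, 8.04 and 8.48 at 0 h, and rose 6.75-fold (2.76, SE 0.17, adjusted p = 5.97e-05). GH3.3 had 9.11, 8.95 and 11.19, against 11.48, 11.49 and 12.33 at 0 h, and fell by 2.02 (SE 0.29), with replicate 3 far above the other arrays of 12h_induced. GH3.5 (WES1) fell by 1.09, a call lost without the replicate block (adjusted p = 0.159), and LBD16, a factor of lateral root initiation, by 0.72. CLE44, whose peptide keeps procambium cells from becoming xylem, had 9.18, 9.30 and 10.06 in 12h_induced, against 11.55, 11.48 and 11.81 at 0 h, and was 4.30-fold lower (-2.1, SE 0.13, adjusted p = 6.3e-05). The PHD finger genes OBE2 and OBE1, needed for meristem and vascular patterning, fell (-2.16 and -1.23), and COV1, which restrains vascular growth in stems, fell by 0.82. The HD-ZIP III gene PHV differed by -0.19 without a call. CLE44 and the OBE genes fell under each scaling.

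The other lists gave small counts, to be set beside 22.4% of all genes called higher and 19.0% called lower. Among measured genes, called higher and called lower were 4 and 0 of 9 tubulins and actins, 4 and 2 of 8 histones, 2 and 3 of 15 glutathione transferases and 7 and 16 of 52 UDP-glycosyltransferases. They were 2 and 3 of 11 peroxidases and 1 and 3 of 4 peroxisomal genes. For 19 sugar carriers they were 1 and 5, and for 13 bHLH factors 2 and 4. The smallest lists gave 3 and 0 of 4 alternative NAD(P)H dehydrogenases and oxidases, 2 and 0 of 3 glycolysis genes, 0 and 2 of 3 ERF and DREB factors, 1 and 1 of 2 proteasome subunits and 1 aminoacyl-tRNA synthetase (ALATS) that was higher by 0.29, a call lost after quantile normalization, after median centring, without the replicate block and on replicates 1 and 2 alone.

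**Figure D3:**
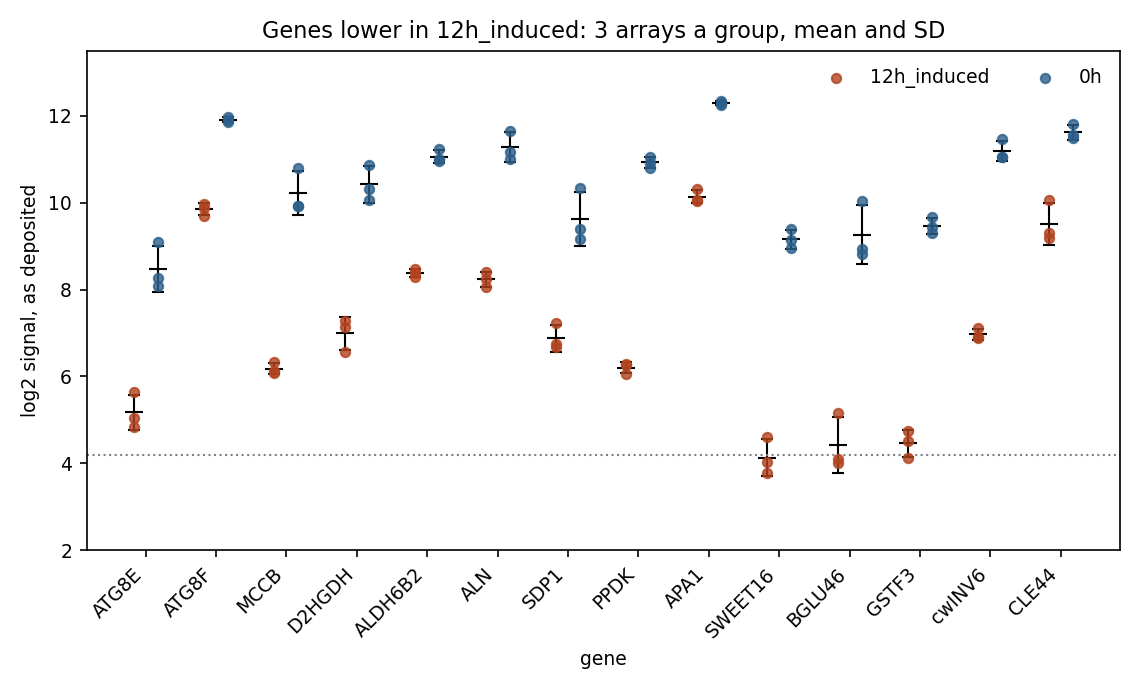
Log2 signals as deposited (y axis) of 14 genes (x axis), with the 3 arrays of 12h_induced left of the 3 of 0h; black marks give mean and SD, and the dotted line the background median of 4.2. In each gene all 12h_induced arrays lie below all 0h arrays, and those of SWEET16, BGLU46 and GSTF3 lie close to the dotted line.

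**Figure D4:**
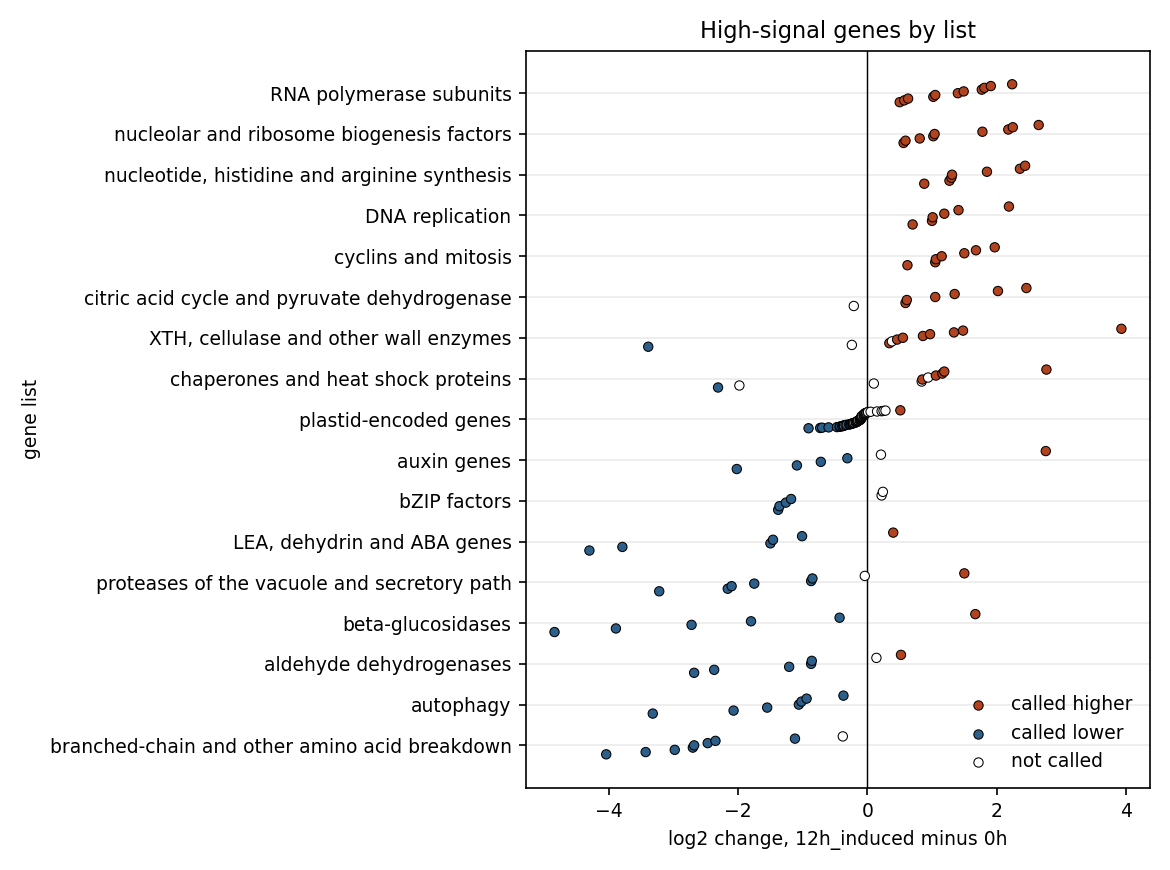
Log2 change, 12h_induced minus 0h (x axis), of each high-signal gene in 17 gene lists (y axis); filled points were called higher or lower and open points were not called. Points of the RNA polymerase subunits all lie right of 0, those of autophagy all left, and those of chaperones on both sides. The list labelled cyclins and mitosis held no cyclin.

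The largest changes at high signal belonged mostly to genes with a locus tag alone, for which only values are given. Among probe sets at 8 or more in both groups, AT5G14580 had 10.82, 10.88 and 11.54 in 12h_induced, against 7.85, 7.87 and 8.51 at 0 h, and rose 8.02-fold. After it and GH3.1 came AT4G24830, AT3G44590, AT3G19440, AT2G05220, AT5G20160 and AT4G26230, with rises of 2.64, 2.64, 2.63, 2.54, 2.53 and 2.52. The largest fall was that of AT4G16190, with 8.41, 8.54 and 9.17, against 12.08, 11.83 and 12.87 at 0 h (11.7-fold lower). AT3G51730 had 8.97, 8.93 and 8.84, against 12.08, 12.13 and 12.06 at 0 h, which is 9.04-fold lower with an SD of at most 0.07 in either group. AT1G07040, AT2G43610, AT5G43830 and AT5G40450 had log2 changes of -3.28, -3.28, -3.08 and -3.08. Where only 12h_induced reached 8, AT4G03292 had 11.39, 11.32 and 11.57, against 5.35, 5.51 and 5.52 at 0 h, a 62.7-fold rise, and AT1G64295, AT4G12210 and AT1G23100 rose 15.8-fold to 25.3-fold. AT1G49150 rose by 4.65, a size that is uncertain because 2 of its 0 h arrays (4.09 and 4.07) lay below the background median. Where only 0 h reached 8, AT1G56220 had 4.65, 4.09 and 4.83 in 12h_induced, against 10.91, 10.90 and 11.69 at 0 h. Its log2 change was -6.64, and those of AT4G37220, AT4G27450, AT5G24490, AT2G39400 and AT1G22890 lay between -6.30 and -5.40. The 12h_induced levels of these 6 genes were close to the background median, and in all but AT2G39400 an array lay below it, so the sizes of the falls are uncertain. AT1G30720 (6.01 against 11.78 at 0 h) and AT1G29100 (6.44 against 11.98 at 0 h) stayed farther above it and were 54.7-fold and 46.6-fold lower.

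The cells kept for 12 h without estrogen show how far these changes went with estrogen. At high signal, limma called 2 of 4639 probe sets between 12h_induced and 12h_uninduced, both higher, while over all 38310 it called 0.06% (20 higher, 0.0522%, and 3 lower, 0.00783%) and over those with 1 gene 0.0419%, all higher (lower 0.0%). At an unadjusted p under 0.05 there were 163 of the 4639 (3.51%), 96 higher and 67 lower with estrogen. The median size of the difference was 0.05 over the 4639, and 88 differed by over 0.5. Replicates 1 and 2 alone gave 0 adjusted calls, and the fit without the replicate block 2. In replicate 3 some genes had the same rounded value in both 12 h groups, as shown for examples below. The comparison of 12h_uninduced with 0h uses the same 0 h arrays as that of 12h_induced, so they are only set side by side. It called 50.1% of all probe sets and 41.5% of those with 1 gene, and 3370 of the 3495 high-signal probe sets called with estrogen were called in the same direction without it, 125 were not called there and 0 were called in the opposite direction.

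The 2 called genes were LHW and AT4G38650. LHW was higher with estrogen by 2.52 (SE 0.21, adjusted p = 0.042), in 3 of 3 pairs. Of 18 alternatives 9 kept that call, with the difference between 2.23 and 2.74 and adjusted p between 0.00506 and 0.39. The call was lost in replicates 1 and 2 alone (0.162) and without any one of 8 arrays (adjusted p 0.0799 to 0.39), all but replicate 3 of 12h_induced. AT4G38650 had 9.68, 9.78 and 9.52 in 12h_induced, against 4.01, 4.68 and 4.34 in 12h_uninduced, and 4.18, 4.25 and 4.48 at 0 h. The 2 groups without estrogen both lay around the background median and the estrogen group more than 4 above them (5.32, SE 0.16, adjusted p = 0.00202). Its call held in 17 of 18 alternatives, the exception being replicates 1 and 2 alone (adjusted p = 0.0781).

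Examples of the genes described above had small differences at 12 h between cells with and without estrogen. NRPA1 averaged 11.38 ± 0.27 in 12h_induced and 11.38 in 12h_uninduced (SD, n = 3), a difference of 0.00 (adjusted p = 1). The difference was 0.02 for YAO, 0.09 for PRL, -0.02 for NDB4 and -0.03 for EXPA9. It was -0.06 for ATG8E, -0.04 for MCCB and 0.18 for PPDK, and none of these was called. In replicate 3, both 12 h groups had the same rounded value for NRPA1 (11.7) and PPDK (6.26), so that pair added little or no difference. Other genes differed in that pair, such as PRL (10.18 in 12h_induced and 10.26 in 12h_uninduced) and NDB4 (11.2 and 11.33). The share of probe sets with equal replicate 3 values between these groups was not counted. CLE44 was 0.26 lower with estrogen (9.51 ± 0.48 in 12h_induced against 9.78, adjusted p = 0.96), and GH3.1 0.02 higher. Of the 146 genes picked by the naming rules, 11 had an unadjusted p under 0.05 and 3 differed by over 1. The third was AT5G67390, with 8.82, 8.96 and 9.33 in 12h_induced and a mean of 7.75 in 12h_uninduced, 1.29 higher without a call (adjusted p = 0.514). A p that misses the threshold does not show equal levels, and the SE of these differences ran from 0.07 to 0.39 over the 146 genes.

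Next by p among high-signal genes were 3 that were not called. AT5G59930 had 6.25, 6.30 and 7.28 in 12h_induced, against 4.73, 5.26 and 5.82 in 12h_uninduced (1.34 higher, adjusted p = 0.079), both far below the 0 h mean of 8.88. AT1G28190 had a mean of 5.75 against 4.69 in 12h_uninduced, with 8.49 at 0 h, and was 1.06 higher (adjusted p = 0.152). AT3G54400 had 9.77, 9.66 and 9.32, against 8.25, 8.34 and 8.64 in 12h_uninduced, above the 0 h mean of 7.63, and was 1.17 higher (adjusted p = 0.223). In each pair of these 3 genes the estrogen-treated array was the higher. AT4G18280, next after them by p, went the other way in each pair. It differed by -0.49 between 12h_induced and 12h_uninduced (SE 0.08, limma adjusted p = 0.251).

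**Figure D5:**
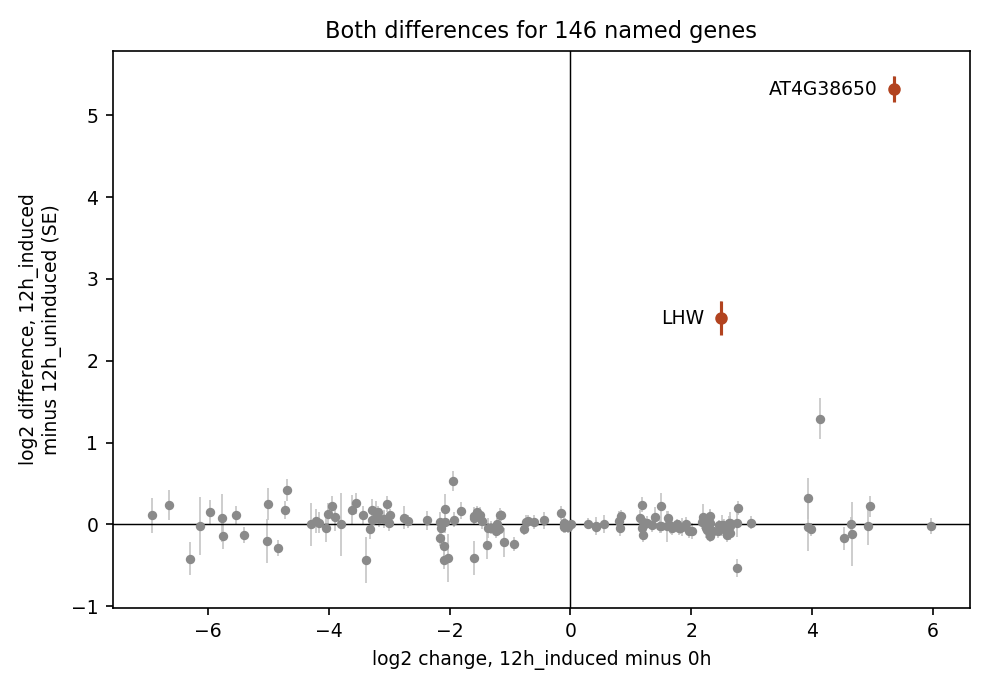
Log2 difference 12h_induced minus 12h_uninduced with its SE (y axis) against log2 change 12h_induced minus 0h (x axis) for the 146 named genes, most of them chosen for their change from 0 h, others for a high signal or a call between the 12 h groups. AT4G38650 (5.32) and LHW (2.52), marked in colour, were called between the 12 h groups. AT5G67390 lies at 1.29 on the y axis. The farthest from 0 of the other points are UGT71B5 (0.53) and AT2G43120 (-0.53). Both axes use the 12h_induced arrays.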

How the data were processed

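Total RNA of 9 samples was hybridised to 1 Affymetrix array each, per the labels' protocols. Log2 signals per probe set were deposited by the authors, whose processing notes name Affymetrix Expression Console 1.3. How probes were summarised and arrays normalised is not given in the sources used here. From 38506 rows, 196 controls were left out. Of 38310 probe sets, 16722 mapped to 1 gene in GEO's platform annotation, 759 to several and 20829 to none. RefSeq (TAIR10.1, used for names only) held 16574 of the 16722.

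The values were used as deposited. A limma 3.58.1 model (R 4.3.3, lmFit and eBayes, prior degrees of freedom 2.01) with a mean per group and a term per replicate number was fitted to all 9 arrays and tested two-sided. p-values were Benjamini-Hochberg adjusted over 38310 probe sets. Arrays of equal number were treated as pairs, following the titles. Their deviations from group means correlated across probe sets at 0.281, 0.179 and 0.445 between 12h_induced and 0h, above 0.1 for every pair. In replicate 3, 23.0% of all probe sets held equal values in both groups, which its correlation can reflect. Arrays of unlike number among replicates 1 and 2 correlated at 0.183 and 0.156, so for these the values do not show the pairing. The fit was tested on simulated data. Python 3.11.15 with matplotlib 3.10.9 made the plots.

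Named genes were LHW, the 8 largest rises and falls at 8 or more in both groups, the 8 largest rises and falls at 8 or more in 1 group with the other above the background median, the 6 brightest, up to 3 of smallest p per list, and up to 8 called between the 12 h groups. The 20 largest rises and falls of annotated genes were added after values were seen. Other list members and the genes next by p between the 12 h groups are named as examples chosen after their values were seen. The members and the 35 lists, matched on symbols and synonyms, were chosen with earlier results of these data known, and 4 lists were trimmed of wrong matches with values in view, so lists are given as counts and medians without a test. Scaling, prior, array weights, filters, thresholds, replicate block and array omissions were varied.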

Additional observations from a re-analysis of the deposited data

Results flagged for a closer look

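Probe sets not tied to 1 gene lay outside the comparisons above. Of 21588 probe sets with no gene or several genes, 16 were called by limma between 12h_induced and 12h_uninduced, 13 higher and 3 lower, with 12 distinct profiles. Of these, 10 were higher and at a mean of 8 or more in 12h_induced, a signal above that of cells without estrogen. Probe sets 13545555, 13545543 and 13545421 held identical values, with means of 13.63 in 12h_induced, 7.28 in 12h_uninduced and 7.92 at 0 h, a difference of 6.35 (SE 0.25, adjusted p = 0.00235) between the 12 h groups. Probe set 13528308 had 8.62 against 2.92 in 12h_uninduced, a difference of 5.70, with the lower level below the background median of 4.2. Probe sets 13545479 and 13545473 were higher by 5.62 and 5.53, and 13356735 by 2.48. Probe set 13525956 was 1.59 higher than without estrogen, with means of 9.59 and 8.0, but lower than the 11.10 at 0 h. Probe sets 13448607 and 13346048 were higher by 1.3 and 1.16. Their genes are unnamed here, and the values are given without an account of what they measure.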

How the results depend on the processing

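Under median centring with the replicate block, high-signal calls were 1203 higher and 2581 lower (1912 and 1583 as deposited) and calls over all probe sets 9121 higher and 18405 lower (13217 and 6228 as deposited). With quantile normalization all probe sets gave 10332 higher and 10595 lower. Median centring shifts every probe set of an array by the same amount, by construction; the cause of the difference between array medians was not tested. A log2 change of at least 1 left 978 higher and 801 lower at high signal and 3056 lower over all. A mean of 9 or more left 1249 and 984. Other settings kept the counts within 1.5 times, among them the fit with no replicate block (1467 and 1189) and replicates 1 and 2 only (1799 and 1523). Leaving out each array of 12h_induced and 0h in turn gave 1701 to 1954 higher and 1373 to 1633 lower at high signal, and 11702 to 13570 higher and 5168 to 6780 lower over all. Between the 12 h groups, array weights and the trend with robust prior each gave 4 calls at high signal, replicates 1 and 2 only 0, an adjusted p under 0.01 gave 1, and array omissions, those of 12h_uninduced added after seeing the data, 1 to 2. LHW against 0 h stayed called, with array omissions at 2.21 to 2.72. Of 137 other named genes called, 129 kept the call in all 16 settings and 8 lost it in some. Those 8 were ALATS, ENOC, PRXIIF, PRXR1, RPN12a, TUB9, WES1 and WRKY6. The direction reversed after median centring for ALATS (-0.23), RPN12a (-0.09), PRXIIF (-0.09) and atpH (-0.51), and after quantile normalization for ALATS (-0.11). As deposited the changes were 0.29 for ALATS, 0.42 for RPN12a, 0.43 for PRXIIF and 0.01, not called, for atpH. Precision is limited by 3 arrays per group, and at low signal by background, whose rows had a median of 4.2 and reached 8.2.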
